A study of Mus musculus with 24 samples.

Results

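The genes described here are the cytosolic ribosomal protein genes of mouse macrophages, chosen by name: symbols that start with Rpl or Rps and a number, without the pseudogene suffix -ps and without the ending rt, and with at least 60 counts over the 24 libraries of the deposited count table. Of 405 symbols with that start, 307 carried one of the suffixes, 98 were candidates, and 89 passed, out of 55401 genes in the table. Of these 89 members, 70 encode the canonical ribosomal proteins (29 of the small subunit and 41 of the large subunit), 11 carry the symbol of a paralog of such a gene, and 8 share the prefix but encode kinases or a binding protein and no part of the ribosome. The study measured mRNA in macrophages grown from the bone marrow of C57BL/6J wild-type mice in L929 cell-conditioned medium. Cells were left untreated, or received S14 at 30 µM, the sphingomyelin named in the study's title, or lipopolysaccharide (LPS), the cell-wall component of Gram-negative bacteria, at 100 ng/mL. Each treatment was harvested at 3 h and at 18 h, which gives 6 groups of 4 libraries. The untreated libraries are named vehicle in the count table and untreated in the sample labels, and the series' design text gives an n of 4 for the mice, but no label ties a library or its replicate number to a mouse, so p-values measure only the spread between these libraries.

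A ribosome consists of a small subunit, which reads the mRNA, and a large subunit, which joins the amino acids. Each subunit is built from ribosomal RNA and a fixed set of small proteins, most of them present once, and mammalian cells make these proteins from single active genes scattered over the genome. The mRNAs of these genes start with a run of pyrimidines that lets the growth-controlling kinase mTOR and the RNA-binding protein LARP1 set their translation as a group. The genomes of mammals also hold many processed pseudogenes of these genes, which are copies of the spliced mRNA, so a short read from the end of the mRNA may fit the gene and its copies alike. The libraries read the 3′ end of each mRNA, so CPM (reads scaled to the library's size) do not scale with mRNA length, and levels of different genes are not ranked here.

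Reads of many members were shared out differently between a gene and its copies in the deposited tables, and 4 gene and copy pairs are shown as examples. Each gene's line gives its last 30 coding bases before the stop codon (GENCODE M21 transcripts, GRCm38, sense strand, 5′ to 3′). Each copy's line gives the 30 bases of its transcript that matched these best. Bases are in lower case, with a base that differs within the pair in capitals.
Rps29: gcgaaggacataggcttcattaagttggac
Gm14303: gcgaaggacataggcttcattaagttggac
Rpl11: aagtacgatggaatcatccttcctggaaaa
Gm10288: aagtacgatggaatcatccttcctggaaaa
Rps25: ggGgacgctccagctgctggcgaagatgca
Gm6988: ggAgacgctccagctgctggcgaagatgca
Rps10: tttggtcgtggacgtggtcagccacctcag
Rps10-ps1: tttggtcgtggacgtggtcagccacctcag
Rps29 lies at chr12:69157722-69159186 on the minus strand and its processed pseudogene Gm14303 at chr2:172509521-172509691 on the minus strand. Rpl11 lies at chr4:136028265-136053428 (minus) and Gm10288 at chr3:146838811-146839347 (minus). Rps25 lies at chr9:44407139-44410427 (plus) and Gm6988 at chr12:110315990-110316364 (plus), and their lines differ in 1 base of the 30. Rps10 lies at chr17:27630418-27636669 (minus) and Rps10-ps1 at chr3:95622278-95622772 (plus). In the count table Rps29 held 325 reads over all libraries and Gm14303 held 140003. In the second deposited table, from which whole reads could be recovered, Rps29 held 158229 reads and Gm14303 held 1032. The same exchange appeared for Rpl11 (23493 against 120955 reads) and Gm10288 (76444 against 86), and Gm6988 held 40137 reads in the count table and 396 in the second. Rps10 had nearly the same total in both (3777 against 3739), although Rps10-ps1 held 27301 reads in the count table and 534 in the second.

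Over the 70 canonical members there were 2769228 reads in the count table and 5083948 in the second. The median member had 2.14 times as many reads in the second table, 21 members had at least 10 times as many, and 37 had at least 2 times as many. For 13 members the totals agreed within 10% (Rpl4, Rpl13, Rpl13a, Rpl14, Rpl22, Rpl29, Rpl32, Rps3, Rps9 and Rps10 among them), and 2 members had fewer reads in the second table. Large gaps besides that of Rps29 were at Rpl23a, a large-subunit protein that docks the signal recognition particle at the tunnel exit (274 against 139015 reads), Rps12 (515 against 164243) and Rpl36a (159 against 53383). With Rps27 and Rps13 these are the 6 members with the largest ratios among those that passed the filter on low counts. Rpl27, which did not pass it, had 107 against 50658 reads.

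Symbols with the pseudogene suffix went the other way, from 424717 reads in the count table to 14807 in the second. A search with the last 500 transcript bases of each canonical gene found 662 copies in the genome's annotated transcripts, at 95% identity or more over at least 100 bases, for 68 of the genes. The copies of the canonical members alone held 924892 reads in the count table and 40114 in the second. Among these members 27 had fewer counts than their own copies. With the copies added to each gene the median ratio was 1.35 in place of 2.14, 17 families agreed within 10%, and 22 families still had at least 2 times as many reads in the second table. For Rpl12, a stalk-base protein, the search found 0 copies (1422 against 65677 reads, a ratio of 46.2), and the family ratio of Rpl27 was 153. The sources used here do not state how either table treated reads that fit several places.

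**Figure D1:**
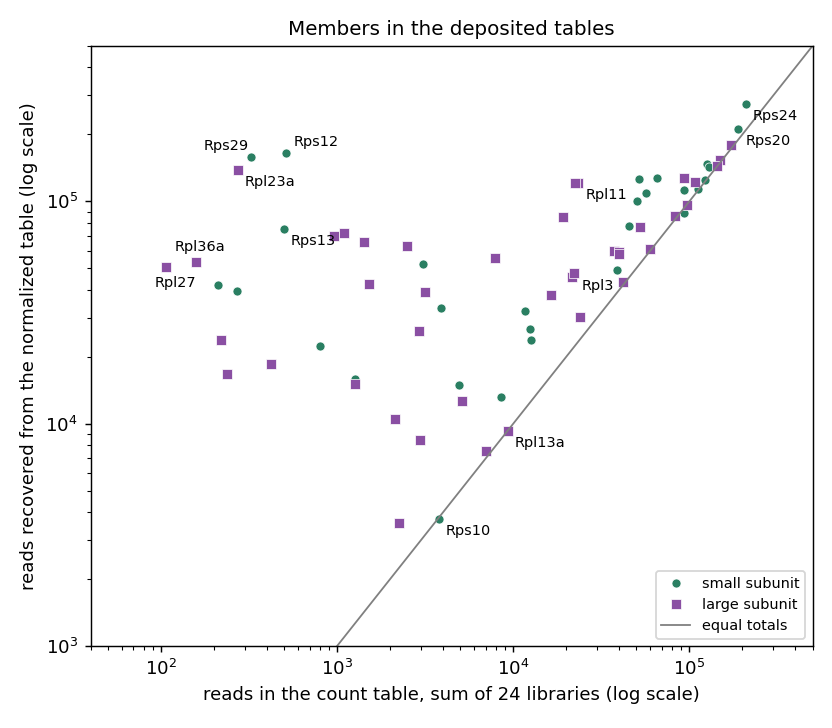
Total reads of each canonical member over the 24 libraries, in the count table (horizontal axis, log scale) and in the second table (vertical axis, log scale); 1 point per gene, with a line at equal totals. The 13 members within 10% lie on the line of equal totals, and the 21 members with at least 10 times as many reads in the second table lie at the upper left, Rps29 (325 against 158229) among them.

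The cut at 60 counts acted on this assignment of reads. Just inside it were Rps23rg1 with 78 counts, Rpl3l with 105 and Rpl27 with 107. Just outside were Rps6 with 55 counts, Rpl32l with 48, Rpl24 with 26 and Rpl10a with 22. Rps6, the small-subunit protein that S6 kinases phosphorylate, held 2833 reads in the second table. The other 5 candidates below the cut were Rps6kl1, Rps6ka4, Rps12l1, Rpl10l and Rps6ka6, with 13 counts or fewer. A further filter on low values left 69 canonical members, 9 paralogs and 8 kinase or binding-protein genes to test in the count table (11717 genes tested in all). From the second table, 70, 7 and 8 were tested among 11406 genes.

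Library totals ran from 3334182 to 6350251 counts, with 13405 to 15505 genes detected. All 7 macrophage markers had reads in every group, with summed levels of 15500 to 44800 CPM per library. Markers of T cells, B cells, neutrophils, mast cells and erythroid cells summed to 2.7 CPM or less. Replicate 4 of the untreated 18 h group stood apart: it held 705 spike-in reads where replicates 1 to 3 held 1829 to 2444, the fewest detected genes (13405), and a median deviation of canonical members from their mean over all groups of -0.49 log2 units in the second table, where the other 3 lay between -0.04 and 0.08. The totals of canonical members called in each comparison that uses it are given with and without it. These are bulk samples, in which fewer cells of a type and less RNA per cell cannot be told apart.

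The share of each library's reads that came from canonical members was lowest after 18 h of LPS in both tables. In the count table it was 3.15% ± 0.137 (SD, n = 4) in untreated cells at 3 h, 3.05% ± 0.0937 with S14 and 2.5% ± 0.0584 with LPS. The 18 h libraries had 2.81% ± 0.0917 (untreated), 2.3% ± 0.0275 (S14) and 1.27% ± 0.056 (LPS). The 4 libraries of LPS at 18 h, at 1.21% to 1.34%, lay below all 20 others, and the untreated and S14 libraries at 3 h overlapped. In the second table the same groups had 5.83% ± 0.208, 5.59% ± 0.228, 4.38% ± 0.0462, 4.83% ± 0.467, 4.36% ± 0.0407 and 2.4% ± 0.0742. Untreated replicate 4 at 18 h, at 4.17%, was the 1 untreated library below the S14 libraries of that time (4.33% to 4.42%). Pseudogenes named by the -ps or rt suffix moved alongside in the count table, from 0.522% ± 0.0199 in untreated cells at 3 h to 0.209% ± 0.00847 after 18 h of LPS.

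**Figure D2:**
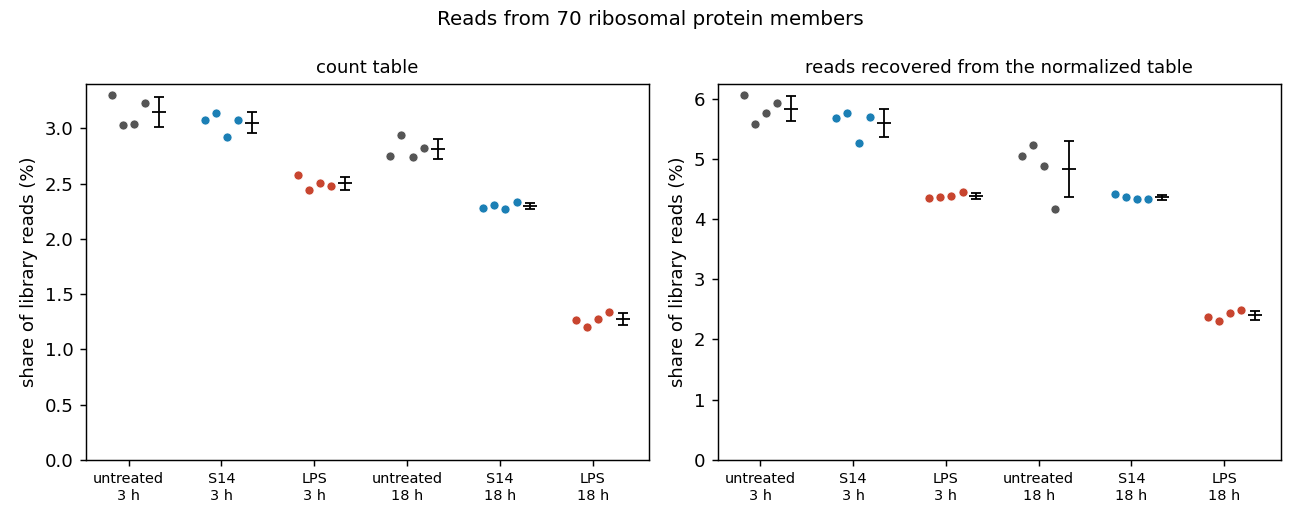
Share of each library's reads, in percent, that fell on canonical ribosomal protein genes, for the 6 groups in the count table and in the second table; points are libraries and bars mark the mean and SD (n = 4). LPS at 18 h is lowest in both tables, at a mean of 1.27% and 2.4%.

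A share depends on everything else in the library, and the other tests therefore used library sizes scaled by TMM, which centres most genes at no change. The mean TMM factor was 0.764 in the LPS libraries at 3 h and 1.18 in the untreated ones. So at 3 h the raw share of canonical members was lower with LPS, while the median canonical member was 0.19 log2 units higher on the TMM scale. Another scale, from the spike-in reads of the second table, is given beside the results. It rests on 705 to 2588 reads per library and shifts the median of all genes. LPS 3 h replicate 1 held 870 spike-in reads (others of its group 1505 to 1551). LPS 18 h replicate 4 held 1128 (others of its group 1799 to 2154). No fit on the spike-in scale left either of these libraries out.

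After 18 h of LPS the mRNAs of 50 of 69 canonical members fell and none rose in the count table (edgeR's quasi-likelihood test, Benjamini-Hochberg adjusted over all genes, threshold 0.05). Of all genes tested, 28.3% were called lower and 27.3% higher. The second table gave 54 of 70 lower and 0 higher, beside 28.5% and 27.5% of all genes. At an unadjusted p under 0.05, 1 member was higher in each table, and DESeq2 on the counts called 1 higher and 55 lower. The median canonical member changed by -0.71 log2 units in the count table and -0.62 in the second, and the median of all genes by -0.04. Both subunits took part: 21 of 29 small-subunit genes (median -0.65) and 29 of 40 large-subunit genes (median -0.79) were lower in the count table. In the second table the counts were 22 of 29 (median -0.56) and 32 of 41 (median -0.70). Without untreated replicate 4, 59 were lower in the count table (median -0.78) and 64 in the second (median -0.72). Spike-in scaling left 60 lower and 0 higher, where 38.6% of all genes were lower and 5.93% higher; the median member was at -1.32 and the median of all genes at -0.68. No member was higher there at an unadjusted p under 0.05. Without untreated replicate 4 that scale gave 54 lower and 0 higher (21.6% and 12.1% of all genes), with the median member at -0.93 and the median gene at -0.19. With the copies added to each gene, 59 families were lower and 1 higher.

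Other values moved with the same libraries. Summed macrophage markers were 15500 to 23500 CPM in the LPS libraries at 18 h and 31000 to 44800 in the untreated ones. Most of that sum was Lyz2, which ran from 7460 to 37200 CPM over all libraries. The next highest marker, Csf1r, ran from 1220 to 2720, so the sum does not show the markers moving together. Fibroblast markers were 10.3 to 17.5 CPM in the LPS libraries at 18 h, nearly all of it Dcn, and 1.99 CPM or less in every other group; Col3a1 was at 0 throughout. Their part in the fall of the ribosomal protein genes was not tested.

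Rpl3 (chr15:80077791-80091868, minus), which lies next to the peptidyl transferase centre of the large subunit, fell furthest. In the second table it held 473, 491, 460 and 556 CPM in the untreated libraries at 18 h, 403, 408, 417 and 410 with S14, and 92.9, 86.5, 95.1 and 105 with LPS. The LPS libraries formed a group of their own far below the others, and the S14 libraries lay under all untreated ones. At 3 h Rpl3 had 524, 500, 479 and 521 CPM untreated and 532, 514, 504 and 511 with LPS, ranges that overlap. The log2 fold change for LPS against untreated at 18 h was -2.38 ± 0.077 (SE, n = 4 a group; adjusted p = 1.13e-27, edgeR) in the second table and -2.79 ± 0.19 (adjusted p = 3.63e-11, edgeR) in the count table. At 3 h it was 0.03 ± 0.071 and 0.32 ± 0.17, and neither was called.

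Rpl13 (chr8:123102350-123105244, plus), a large-subunit protein whose totals agreed between the tables, gave the same picture from nearly the same reads. It had 1320, 1520, 1380 and 2270 CPM in the untreated libraries at 18 h and 551, 503, 564 and 641 with LPS (second table). The groups did not overlap, and untreated replicate 4 was the high one. The fall was -1.54 ± 0.12 (adjusted p = 9.39e-12, edgeR) in the count table and -1.52 ± 0.11 in the second. Rpl4, which lines the exit tunnel, followed at -1.43 ± 0.12 and -1.42 ± 0.12, Rpl32 at -1.24 ± 0.068 and -1.21 ± 0.068, and Rpl14 at -1.20 ± 0.08 and -1.18 ± 0.08. In the small subunit Rps3, an mRNA entry-channel protein, fell by 1.00 on the log2 scale in both tables.

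For some members the size of the change differed between the tables. Rpl12 fell by 2.25 on the log2 scale in the count table and by 1.14 in the second, Rps7 by 1.99 and 0.97, and Rpl5, which carries 5S RNA into the large subunit, by 1.89 and 0.81. Rpl11, its partner in that 5S particle, had 206, 223, 232 and 381 CPM untreated and 109, 97.9, 118 and 139 with LPS in the count table, and 1120, 1140, 1050 and 957 against 575, 566, 637 and 760 in the second. Untreated replicate 4 was the highest of its group in the count table and the lowest in the second, and the groups did not overlap in either. Rpl11 fell by 1.17 (SE 0.14, adjusted p = 3.73e-08, edgeR) and by 0.75 (SE 0.077, adjusted p = 3.01e-11). Rps19, whose loss in one copy causes Diamond-Blackfan anaemia, fell by 0.41 and 0.52. Rpl13a, which also serves in the GAIT complex that silences inflammatory mRNAs, fell by 0.70 in both. Rpl38, known for selective translation of Hox mRNAs, was at -0.59 in both and passed only in the second (adjusted p = 0.0683 and 2.62e-05).

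Of the 69 canonical members tested in both tables, 46 were lower in both, 4 in the count table only and 7 in the second only. The rest were called in neither, and examples follow. Rps29 in the second table had 1520, 1400, 1290 and 775 CPM untreated and 1200, 1250, 1160 and 1040 with LPS. The groups overlap only through untreated replicate 4, at 775 CPM. The change of Rps29 was -0.09 (adjusted p = 0.53, edgeR) in the second table. It was 0.37 (adjusted p = 0.552) on the 325 counts of the first table. Without untreated replicate 4, Rps29 was at -0.27 ± 0.072 in the second table. Rps27 was at 0.05 and 0.12 and Rps9 at -0.13 and -0.11, none called. Rpl41, whose product is the smallest protein of the ribosome, was at 0.49 (adjusted p = 0.0535) and 0.54 (adjusted p = 0.0516). Leaving out 1 of 4 libraries (LPS 3 h replicate 1 or 2, untreated 18 h replicate 1, or LPS 18 h replicate 4) took Rpl41 past the threshold, at 0.49, 0.49, 0.63 and 0.65.

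**Figure D3:**
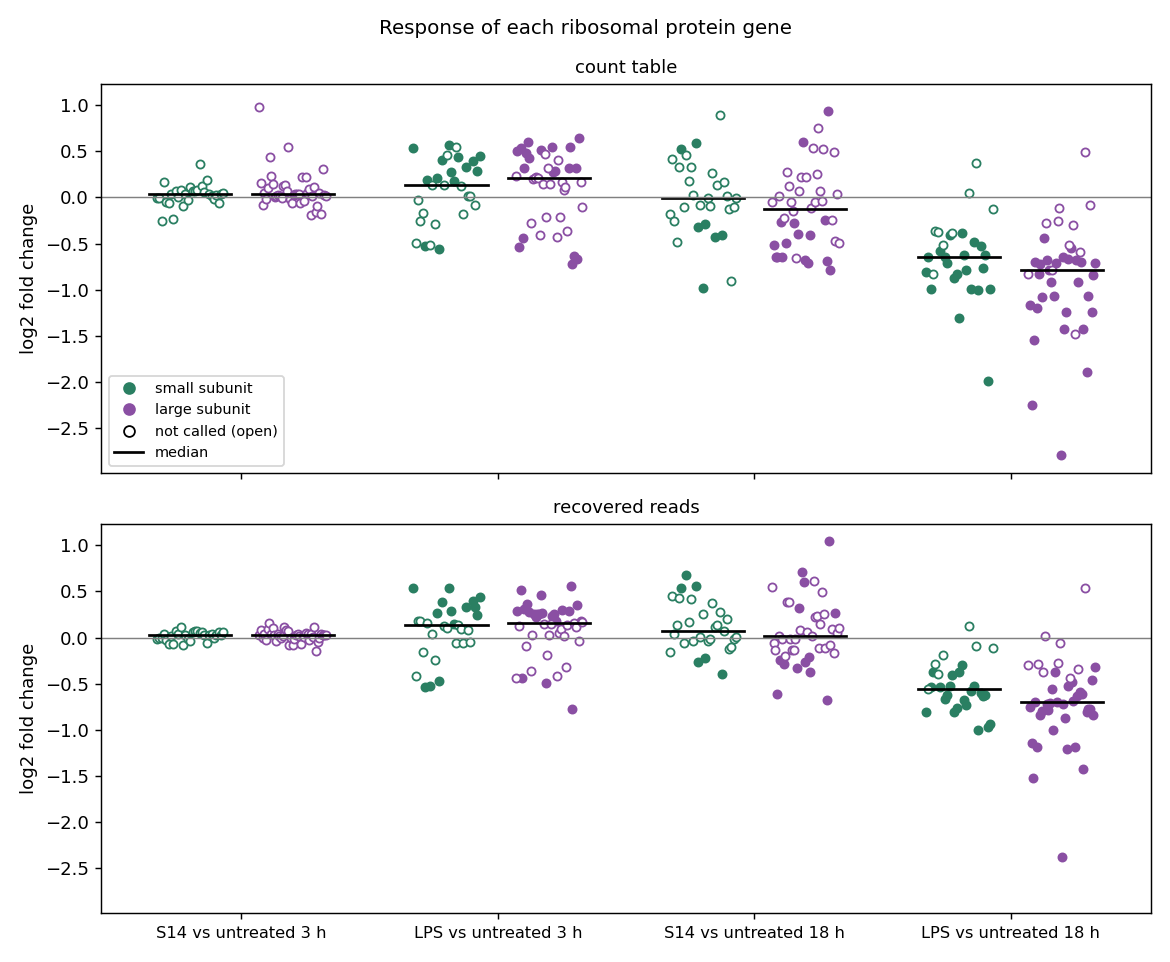
Log2 fold change of each canonical member (points) for each treatment against untreated at each time, in the count table and in the second table; filled points passed the test. With LPS at 18 h 50 of 69 and 54 of 70 members were called lower, with Rpl3 lowest at -2.79 and -2.38, and with S14 at 3 h no point is filled.

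LPS at 3 h gave an earlier and mostly opposite picture. The count table had 27 canonical members that rose and 7 that fell (25.3% of all genes were called higher and 30.2% lower), and the second table had 30 and 6 (25.8% and 30.3%). The median member was at 0.19 and 0.15, and the median of all genes at -0.11. Of the small-subunit genes 12 rose and 2 fell, and of the large-subunit genes 15 rose and 5 fell in the count table; the second table gave 11 and 3, and 19 and 3. Without untreated 18 h replicate 4, which is in neither group, 32 rose and 11 fell in the count table and 34 and 12 in the second. With spike-in scaling 7 rose and 0 fell (20.0% and 8.15% of all genes), with the median member at 0.52 and the median of all genes at 0.23. No member was lower on that scale at an unadjusted p under 0.05. Without that library 30 rose and 0 fell on it (27.9% and 11.7% of all genes).

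There were 22 members that rose in both tables and 4 that fell in both. Rps24 (chr14:24487125-24496959, plus), a small-subunit protein, had 2290, 2230, 2140 and 2490 CPM untreated and 3450, 3160, 3390 and 3290 with LPS at 3 h in the second table, without overlap. It rose by 0.57 ± 0.07 (adjusted p = 2.3e-09, edgeR) in the count table and 0.54 ± 0.071 in the second. Rpl4 rose by 0.55 and 0.56, Rps10 by 0.54 in both, Rpl13 by 0.53 and 0.52, Rpl26, a regulator of p53 translation, by 0.51 and 0.46, and Rps9 by 0.45 and 0.44. The 4 that fell in both were Rpl41, Rps15, Rps2 and Rpl13a.

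Rpl41 (chr10:128548114-128549305, minus) had 362, 355, 369 and 338 CPM untreated and 147, 262, 179 and 250 with LPS at 3 h in the second table. All LPS libraries lay below all untreated ones, with a spread among themselves. The fall was -0.77 ± 0.23 (adjusted p = 0.00734, edgeR), and -0.72 ± 0.21 in the count table; on the spike-in scale it was -0.44 (adjusted p = 0.258) and not called. Rps15 fell by 0.53 and 0.54 and Rps2 by 0.56 and 0.47. Rpl13a fell by 0.44 in both.

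Rpl7 was called in opposite directions. It was at -0.67 ± 0.27 (adjusted p = 0.0356, edgeR) in the count table and 0.35 ± 0.085 (adjusted p = 0.00056) in the second, and the count-table call was lost without untreated 3 h replicate 1 or 2 or LPS 3 h replicate 1 or 3. Rpl7a rose in the count table (0.64 ± 0.21, adjusted p = 0.011; 0.48 and not called without LPS 3 h replicate 1) and was at -0.04 in the second. Rpl5 fell in the count table (-0.63, adjusted p = 0.0369) and was at 0.16 (adjusted p = 0.157) in the second; leaving out any of 5 of the libraries of the pair (untreated 3 h replicate 3 or 4, LPS 3 h replicate 1, 2 or 3) ended the count-table call. Rpl17 rose in both (0.60 and 0.36), but not without LPS 3 h replicate 3 in the count table (0.47). Among the 36 tested members with at least 2 times as many reads in the second table, the sign of the LPS change at 3 h differed between the tables for 15, with a median difference of 0.29 log2 units. Among the 13 members whose totals agreed within 10% it differed for none, and the largest difference was 0.023.

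S14 at 18 h moved fewer members, and the balance depended on the table. The count table had 4 canonical members that rose and 19 that fell (12.6% of all genes were called higher and 11.6% lower), with a median of -0.08. The second table gave 8 higher and 11 lower (12.7% and 11.5%), with a median of 0.03. The median of all genes was -0.02. The small subunit had 2 higher and 5 lower in the count table and 3 and 3 in the second, and the large subunit 2 and 14, and 5 and 8. Without untreated replicate 4 the counts were 4 and 14, and 7 and 15. Spike-in scaling left 0 that rose, also at an unadjusted p under 0.05, and 48 that fell, where 64.3% of all genes fell and 0.905% rose; the median member was at -1.05 and the median of all genes at -0.98. Relative to that shift the members were near all other genes. Without untreated replicate 4 this scale gave 0 and 25 (1.12% and 18.1% of all genes), with the median member at -0.58 and the median gene at -0.49.

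The 10 members lower with S14 at 18 h in both tables were Rpl4, Rpl13, Rps3, Rpl32, Rpl26, Rpl3, Rps20, Rpl14, Rps24 and Rpl31. Rpl4 fell by 0.69 (SE 0.12, adjusted p = 0.000119, edgeR) and 0.68, and without untreated replicate 4 by 0.53 and 0.52. Rps3 fell by 0.41 and 0.40, and was at -0.18 and -0.17 and not called in either table without that library. Rpl13 had 1320, 1520, 1380 and 2270 CPM untreated and 949, 1120, 1060 and 1120 with S14 in the second table, without overlap. It fell by 0.64 and 0.61, and without untreated replicate 4, its highest library, by 0.42 and 0.40. Rpl3 fell by 0.68 in the count table, where untreated replicate 4 stood at 442 CPM against 214 to 238 in the others, and by 0.37 without that library. In the second table it fell by 0.27, and by 0.21 without it.

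The 4 members that rose with S14 at 18 h in both tables were Rpl41, Rpl29, Rps2 and Rps15. Rpl41 had 219, 176, 174 and 95.7 CPM untreated and 370, 317, 344 and 336 with S14 in the second table, so every S14 library was above every untreated one. It rose by 1.04 ± 0.23 (adjusted p = 0.0019, edgeR), and by 0.93 ± 0.21 in the count table; without untreated replicate 4, the lowest library, by 0.85 and 0.74. On the spike-in scale it was at 0.13 (adjusted p = 0.66). Rpl29 rose by 0.60 in both tables with overlapping libraries, Rps2 by 0.59 and 0.56, and Rps15 by 0.52 and 0.54. Without untreated replicate 4, Rps15 rose by 0.33 and 0.36.

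Several S14 values at 18 h held in only 1 table. Rps23, which lies in the decoding centre, was called at -0.98 ± 0.3 (adjusted p = 0.0125, edgeR) in the count table and was at 0.25 (adjusted p = 0.159) in the second; without untreated replicate 4 or S14 replicate 2 it was at -0.75 and not called. Rpl11 was called at -0.52 in the count table (adjusted p = 0.00479), at -0.28 without untreated replicate 4, and was at -0.06 (adjusted p = 0.617) in the second. Rpl5 was called at -0.79 and was at -0.08 in the second; the call ended without untreated replicate 3 or 4 or S14 replicate 4 (-0.69, -0.63 and -0.68). Rpl28 and Rps16 were higher only in the second table, at 0.71 (adjusted p = 0.00297) and 0.68 (adjusted p = 0.00568).

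S14 at 3 h changed no canonical member in either table by edgeR's test, where 9.05% of all genes were called higher and 6.20% lower on the counts and 9.26% and 6.43% on the recovered reads. At an unadjusted p under 0.05, 1 member was higher on the counts and 0 on the recovered reads, none was lower, and DESeq2 called 0. The median member was at 0.04 and 0.03 and the median of all genes at -0.03. The widest values came from members with few counts: Rpl10, which lies near the peptidyl transferase centre, was at 0.98 ± 0.52 (adjusted p = 0.246) on 239 counts and at 0.03 ± 0.22 in the second table. Rpl28 was at 0.55 ± 0.5 and -0.08 ± 0.16, Rpl15 at 0.44 ± 0.19 and 0.16 ± 0.14, and Rps16 at -0.23 ± 0.24 and -0.07 ± 0.17. For well-covered members the libraries overlapped closely: Rpl3 had 476, 490, 471 and 478 CPM with S14 and 479 to 524 untreated in the second table, a change of -0.08 ± 0.071 (adjusted p = 0.549).

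Set directly against LPS, S14 left ribosomal protein mRNAs higher at 18 h. The count table had 52 canonical members higher with S14 and 0 lower (21.3% of all genes were called higher and 21.3% lower), and the second table had 64 and 0 (21.5% and 21.5%). None was lower at an unadjusted p under 0.05 in either table, and DESeq2 called 52 and 0. The median member was 0.70 higher in both tables and the median gene 0.02 higher. Without untreated replicate 4, which is in neither group, 54 and 67 were higher. After spike-in scaling 3 were higher and 0 lower, also at an unadjusted p under 0.05 (4.43% and 11.9% of all genes), with the median member at 0.35 and the median gene at -0.30. Without that library 9 were higher and 0 lower on it (7.30% and 23.8% of all genes). Rpl3 was higher with S14 by 2.11 log2 units in both tables (SE 0.19 and 0.077) and Rpl13 by 0.90 and 0.91. Rpl36a was higher by 2.23 ± 0.7 on few counts and by 1.08 ± 0.099 in the second table. Rps24 was the reverse case, at 0.10 and 0.08 with neither called: it had 2130, 2110, 2080 and 2200 CPM with S14 and 2100, 2180, 1890 and 1900 with LPS, which overlap.

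At 3 h S14 left 4 members higher and 19 lower than LPS in the count table (23.7% and 22.4% of all genes), and 7 and 23 in the second (23.7% and 22.9%). The median member was at -0.13 and -0.14 and the median gene at 0.07. Without untreated 18 h replicate 4, which is in neither group, the counts were 7 and 26, and 11 and 32. Spike-in scaling left no member called, where 5.22% of all genes were called higher and 13.8% lower; at an unadjusted p under 0.05, 7 were lower and 0 higher. Without that library 0 were higher and 13 lower on it (8.95% and 20.4% of all genes). Rps10 was lower with S14 by 0.55 and 0.56 log2 units, and Rps24 by 0.51 and 0.48. Rpl41 was higher by 0.56 ± 0.21 (adjusted p = 0.033, edgeR) and 0.62 ± 0.23, a count-table call that ended without S14 3 h replicate 1, 2 or 4 or LPS 3 h replicate 1 or 3. These comparisons share their libraries with those against untreated cells.

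Untreated cells differed between the times as well. The count table had 6 canonical members higher and 22 lower at 18 h than at 3 h (19.2% and 19.6% of all genes), and the second table had 2 and 41 (18.9% and 20.1%), with medians of -0.20 and -0.30 beside -0.01 for all genes. Without replicate 4 of 18 h the counts were 3 and 19, and 2 and 32. The direction turned on the spike-in scale, where 25 were higher and 0 lower, also at an unadjusted p under 0.05 (46.3% and 1.82% of all genes); there the median member was at 0.59 and the median gene at 0.82. The number of calls there rests on replicate 4 of 18 h, the library with 705 spike-in reads. Without it 1 was higher and 0 lower on that scale (17.2% and 3.12% of all genes), and 7 and 2 at an unadjusted p under 0.05. The median member was then at 0.20 and the median gene at 0.32. On the TMM scale without that library the median member in the count table was at -0.11. Rps2, a small-subunit fidelity protein, was lower by 1.04 and 1.01 log2 units on the TMM scale, Rpl41 by 1.01 and 1.10, Rps15 by 0.89 and 0.90 and Rpl29 by 0.78 and 0.80. Rpl26 was higher by 0.27 and 0.19. Rpl4 was higher by 0.32 and 0.31 with overlapping libraries, and was at 0.17 and 0.16 and not called without replicate 4 of 18 h. Rpl7a was called in opposite directions, at 0.68 in the count table and at -0.31 in the second; without replicate 4 of 18 h it was at 0.30 and -0.16, neither called.

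The change over time of each treatment's effect was tested as an interaction. The LPS effect was lower at 18 h than at 3 h for 45 canonical members and higher for 1 in the count table (26.1% and 25.1% of all genes), and for 50 and 1 in the second (26.5% and 25.2%), with medians of -0.96 and -0.75 beside 0.01 for all genes. Without untreated 18 h replicate 4 the counts were 49 and 1, and 54 and 1. Rpl3 led, at -3.12 ± 0.26 (adjusted p = 1.1e-09, edgeR) and -2.41 ± 0.1, then Rpl13 at -2.07 ± 0.17 and -2.04 ± 0.16, and Rpl4 at -1.98 in both. The 1 member in the other direction in both tables was Rpl41, at 1.21 ± 0.29 (adjusted p = 0.00184, edgeR) and 1.30 ± 0.32. On the spike-in scale 53 were lower and 0 higher, also at an unadjusted p under 0.05 (38.2% and 3.25% of all genes), and Rpl41 was at 0.37 (adjusted p = 0.462) and not called. Without that library this scale gave 51 and 0 (28.6% and 7.21% of all genes). The S14 effect was lower at 18 h for 12 members and higher for 3 in the count table (8.98% and 7.61% of all genes), and for 7 and 5 in the second (8.98% and 7.76%). Leaving out untreated 18 h replicate 4 gave 12 and 3, and 11 and 5. Rpl41 (1.08 ± 0.29), Rps2 (0.68 ± 0.23) and Rpl29 (0.62 ± 0.19) were higher in both tables, and Rpl4 (-0.80 ± 0.17) and Rpl13 (-0.69 ± 0.17) were among the 6 lower in both. For S14 the spike-in scale gave 37 lower and 0 higher, also at an unadjusted p under 0.05 (34.9% and 0.171% of all genes), and Rpl41 was at 0.17 (adjusted p = 0.707). It gave 14 and 0 without untreated 18 h replicate 4 (11.8% and 0.218%).

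**Figure D4:**
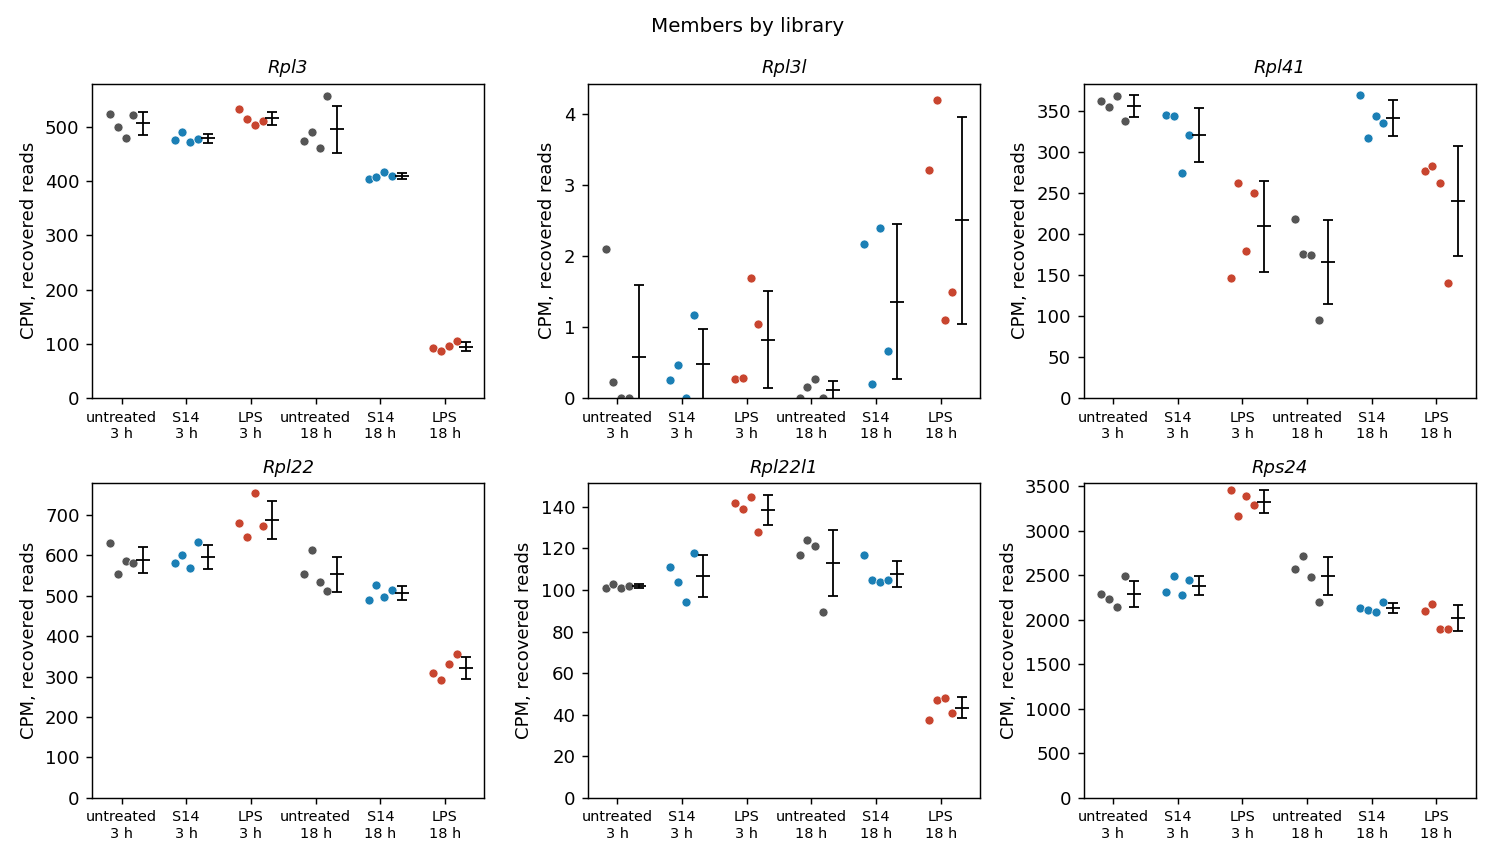
CPM of recovered reads for Rpl3, Rpl3l, Rpl41, Rpl22, Rpl22l1 and Rps24 in each of the 24 libraries, by group; points are libraries and bars mark the mean and SD (n = 4). Rpl3 is lowest in LPS at 18 h (86.5 to 105 CPM), Rps24 is highest in LPS at 3 h (3160 to 3450), and Rpl41 has its lowest mean in untreated cells at 18 h (95.7 to 219); bars that reach below 0 for Rpl3l are cut at 0.

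Paralogs here are second genes whose symbols mark a close relative of a ribosomal protein gene; GENCODE types 4 of the 11, Rpl6l, Rps3a2, Rps3a3 and Rps4l, as processed pseudogenes. Rpl22l1 (chr3:28805436-28807424, plus), the paralog of Rpl22 (chr4:152325742-152334071, plus), had 117, 124, 121 and 89.4 CPM untreated at 18 h and 37.5, 47.2, 48.0 and 40.9 with LPS in the second table. Rpl22 had 555, 613, 533 and 512 untreated and 309, 291, 332 and 355 with LPS. Neither gene's groups overlapped. Rpl22l1 fell by 1.47 (SE 0.1, adjusted p = 2.74e-16, edgeR) and 1.38, and Rpl22 by 0.79 (SE 0.076) and 0.78. At 3 h with LPS both rose, Rpl22l1 by 0.46 and 0.45 and Rpl22 by 0.22 in both; the Rpl22 call in the count table ended without untreated 3 h replicate 2 (0.19) or LPS 3 h replicate 3 (0.17).

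Rpl36al had equal totals in the tables (12001 reads) and fell with LPS at 18 h by 0.79 in both (adjusted p = 0.000435, edgeR); it had 98.7, 101, 87.2 and 173 CPM untreated and 59.3, 54.9, 63.6 and 86.9 with LPS in the count table. The groups touched but did not overlap, and without untreated replicate 4 the fall was 0.52. At 3 h with LPS it rose by 0.52 and 0.53, and in the count table it was at 0.40 and not called without LPS 3 h replicate 1. Its relative Rpl36a was at -1.48 (adjusted p = 0.0804) on 159 counts and fell by 1.18 in the second table. Rps27l, a paralog of Rps27 and a p53 target, had 163, 159, 160 and 154 CPM untreated and 144, 129, 170 and 198 with LPS at 18 h in the count table, which overlap (0.02 ± 0.093, adjusted p = 0.899). It was lower in untreated cells at 18 h than at 3 h by 0.43. Rpl7l1 was at 0.05 with LPS at 18 h.

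Rpl3l (chr17:24727820-24736143, plus), the paralog of Rpl3 that striated muscle uses in its place, was read at the edge of detection. In the count table the untreated libraries at 18 h held 0, 0.158, 0.28 and 0 CPM, those with S14 2.19, 0.206, 2.44 and 0.674, and those with LPS 3.28, 4.28, 1.12 and 1.53. The LPS libraries lay above the untreated ones and the S14 libraries overlapped them. The groups held 43 reads with LPS, 26 with S14 and 3 untreated, which gives a CPM ratio of 20.2 for LPS (95% exact counting interval 6.46 to 102) and 11.2 for S14 (3.43 to 57.8). Such intervals cover counting error only. The fitted change was 4.10 ± 0.98 (adjusted p = 0.000444, edgeR) for LPS and 3.24 ± 1 (adjusted p = 0.0183) for S14, and the S14 call ended without S14 18 h replicate 1 or 3 (2.92 and 2.85). The time difference of the LPS effect, 3.60 ± 1.4 (adjusted p = 0.0348), was not called without any 1 of 7 libraries, and was 1.05 without untreated 3 h replicate 1. The other paralogs that passed the filter were Rpl6l, Rps3a2, Rps3a3 and Rps4l in the count table, none called in the 4 comparisons with untreated cells.

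The kinases that share the prefix act upstream of the ribosome: the p90 kinases (Rps6ka1, Rps6ka2 and Rps6ka3) follow ERK, and the S6 kinases (Rps6kb1 and Rps6kb2) follow mTOR. At 3 h with LPS Rps6ka3 rose by 1.47 ± 0.11 (adjusted p = 5.52e-16, edgeR), Rps6ka1 fell by 1.23 (SE 0.11) and Rps19bp1, which binds Rps19, fell by 0.38. At 18 h with LPS Rps6kb2 rose by 0.94 ± 0.17 and Rps6kb1 by 0.29, while Rps6ka5, a p38- and ERK-driven kinase of chromatin, fell by 1.23, Rps6ka2 by 1.55 and Rps6ka1 by 0.37. Rps6ka5 also fell with S14 at 18 h, by 0.68. Without untreated 18 h replicate 4, Rps6ka2 with LPS (-1.22) and Rps6ka5 with S14 (-0.54) were not called. On the spike-in scale Rps6kb1 with LPS at 18 h was at -0.39 and Rps6kb2 at 0.31, neither called. Rps6kc1 was not called against untreated cells in any of the 4 comparisons. The second table gave the same numbers of calls for these genes.

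Across the 6 groups the canonical members shared a profile. LPS at 18 h was the lowest group for 66 of 69 members in the count table and 67 of 70 in the second, and LPS at 3 h was the highest for 43 and 49. The median deviation from the mean over the groups, on the log2 scale in the second table, was 0.21 (untreated), 0.25 (S14) and 0.38 (LPS) at 3 h. The 18 h groups were at -0.10, -0.03 and -0.72 in the same order. Outside the members, the genes whose group means followed the median profile most closely in the count table were Ap1ar (Pearson r = 0.998 over 6 group means), Rack1 (0.997), a small-subunit protein without the prefix, Eef1d (0.996), a subunit of the factor that recharges elongation factor 1A, Lsm4 (0.996) and Rrp15 (0.995). In the second table they included Lsm4 (1.000), Serbp1 (0.996), Alkbh1 (0.995) and Rrp15 (0.994). These are descriptions over 6 points that share their libraries.

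**Figure D5:**
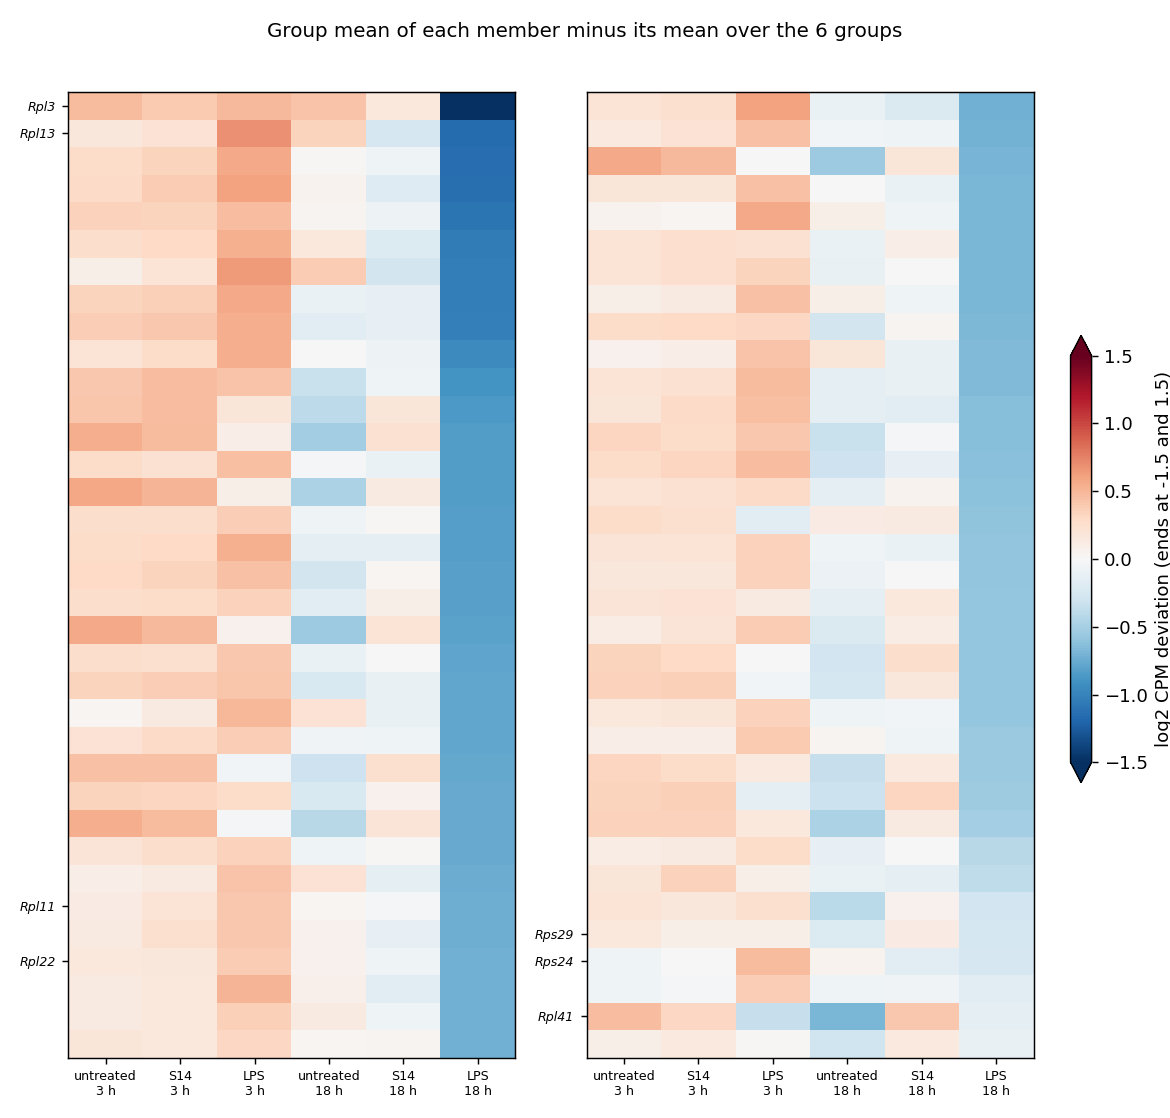
Deviation of each group's mean log2 CPM from the mean over the 6 groups, for the 70 canonical members in recovered reads, 1 line of cells per gene, ordered by the value in LPS at 18 h, with the genes described by library named; the colour scale ends at 1.5 log2 units on either side. The column for LPS at 18 h is lowest for 67 of 70 members, with a median of -0.72, and the column for LPS at 3 h is highest for 49.

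Genes of the same process that the name rule misses were given by lists. Of the ribosomal proteins without the prefix, 6 of 7 could be tested, and 5 fell with LPS at 18 h in the count table: Rpsa (-1.07 ± 0.083), Rack1 (-1.06 ± 0.072), Fau (-0.74 ± 0.18), Rplp1 (-0.63 ± 0.072) and Rplp0 (-0.46 ± 0.09), the last 2 of the ribosomal stalk. The list's median was -0.68 and 0 rose, beside 28.3% of all genes called lower and 27.3% higher. From the recovered reads, 4 of the 6 fell and 0 rose (median -0.52), beside 28.5% and 27.5% of all genes. With LPS at 3 h Rack1 rose in the count table. Of 26 translation factors 17 fell and 3 rose with LPS at 18 h (median -0.56), beside 28.3% and 27.3% of all genes. Eef1b2 fell by 1.12 and Eef2, the translocase of elongation, by 1.05, whereas Eif4g2 rose by 0.81 and Eif5 by 0.64. On the spike-in scale 18 of the 26 were lower and 0 higher, beside 38.6% and 5.93% of all genes. At 3 h with LPS 9 rose and 4 fell, beside 25.3% and 30.2% of all genes, Eif4g2 (0.89 ± 0.089) and Pabpc1 (0.71 ± 0.083) upward and Eif4b (-0.98 ± 0.13) downward.

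Of 40 ribosome biogenesis genes 18 fell and 5 rose with LPS at 18 h (median -0.44), beside 28.3% and 27.3% of all genes. The H/ACA particle that pseudouridylates ribosomal RNA fell in all of its listed subunits, Dkc1 (-1.83 ± 0.25), Gar1 (-1.40 ± 0.24), Nop10 (-1.35 ± 0.12) and Nhp2 (-1.18 ± 0.16), and so did the nucleolar chaperone Npm1 (-1.30 ± 0.11). Heatr1 and Eif6 rose by 1.14 and 1.11; on the spike-in scale 21 of the 40 were lower and 0 higher, beside 38.6% and 5.93% of all genes. With LPS at 3 h 7 rose and 11 fell, beside 25.3% and 30.2% of all genes, with Sbds (2.05 ± 0.11) and Wdr43 (1.98 ± 0.1) highest and Gnl3 (-1.56 ± 0.18) lowest. With S14 at 18 h 9 rose and 2 fell, beside 12.6% and 11.6% of all genes, and 7 and 2 without untreated 18 h replicate 4. The spike-in scale gave 0 and 21, beside 0.905% and 64.3% of all genes, and 0 and 6 without that library. With S14 at 3 h 4 of 40 rose (Rrs1, Wdr43, Eif6 and Rrn3) and 0 fell, beside 9.05% and 6.20% of all genes. In untreated cells 29 were lower at 18 h than at 3 h and 0 were higher, beside 19.6% and 19.2% of all genes, and 24 and 0 without untreated 18 h replicate 4. On the spike-in scale 3 were higher and 0 lower, beside 46.3% and 1.82% of all genes, with the list's median at 0.21 and that of all genes at 0.82. Leaving that library out gave 0 higher and 3 lower there.

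Of 20 regulators of translation, Rps6kb1 and Rps6kb2 among them, 8 rose and 7 fell with LPS at 18 h, beside 27.3% and 28.3% of all genes, and 8 and 6 without untreated 18 h replicate 4. The spike-in scale gave 0 and 7, beside 5.93% and 38.6%. On the TMM scale the 4E-binding protein gene Eif4ebp1 rose by 1.18 ± 0.15 and its target Eif4e, the cap-binding factor, by 1.08 ± 0.096, while Pdcd4, an inhibitor of the helicase eIF4A, fell by 3.54 and Sesn1 by 3.33. With LPS at 3 h 6 of the 20 rose and 9 fell (median -0.38), beside 25.3% and 30.2% of all genes. With S14 at 3 h 3 rose and 3 fell, beside 9.05% and 6.20%. Larp1, the binder of pyrimidine tracts named above, was among those that rose, by 2.56 ± 0.14 with LPS and 0.92 ± 0.14 with S14 at 3 h. At 18 h Larp1 was called with LPS (0.40 ± 0.14).

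The start of these mRNAs can be shown for the 54 of 73 canonical genes by name that have an entry among the RefSeq promoter windows. Each line gives 30 bases around the annotated start, 15 before and 15 from the start on (RefSeq, GRCm38.p6, strand of the gene, 5′ to 3′), with a run of a C and at least 4 further pyrimidines at the start in capitals. They are shown because such a run was described above for the family's mRNAs. The lines are from members that fell with LPS at 18 h in at least 1 table and from 2 that did not.
Rpl14: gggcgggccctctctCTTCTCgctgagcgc
Rps10: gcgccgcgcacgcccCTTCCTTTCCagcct
Rps18: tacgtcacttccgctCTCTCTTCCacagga
Rpl38: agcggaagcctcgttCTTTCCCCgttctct
Rps27: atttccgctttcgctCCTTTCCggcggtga
Rpl13: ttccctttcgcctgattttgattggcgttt
Rpl11: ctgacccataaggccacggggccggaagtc
Rpl41: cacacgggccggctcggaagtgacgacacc
The windows lie at chr9:120571502-120571531 (Rpl14, plus), chr17:27635230-27635259 (Rps10, minus), chr17:33955651-33955680 (Rps18, minus), chr11:114668565-114668594 (Rpl38, plus), chr3:90213634-90213663 (Rps27, minus), chr8:123102335-123102364 (Rpl13, plus), chr4:136053379-136053408 (Rpl11, minus) and chr10:128549154-128549183 (Rpl41, minus). The run was at the annotated start in 12 of 64 windows of these genes (18.8%) and in 2.51% of all 32851 windows. Within 5 bases of the start it was in 43.8% and 18.3%. Rps27 carried the run at its annotated start and was not called with LPS at 18 h. Rpl13 had none at its annotated start and fell, although its window holds such a run before that start. Rpl41 had none at its annotated start and was not called. A link between the run and the change with LPS was not tested. CCGGAAG, the core bound by ETS-family factors such as GABP, was found on either strand of the 250 bases before to 50 after the start in 35.9% of the windows of these genes and 8.86% of all, and AAGATGGC, the core of the YY1 motif, in 10.9% and 2.75%. A match describes the letters in the window and no binding.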

How the data were processed

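Gene counts were deposited by the authors for 24 libraries made with a 3′ kit (QuantSeq 3′ FWD, per the labels); the second deposited table holds normalized signal, made by the authors by dividing counts by size factors (0.773 to 1.59 as recovered). The submitters' processing notes name STAR 2.6.1a as well as cutadapt 1.18, the build GRCm38, featureCounts 1.6.4 from Subread, DESeq2 and FastQC; the sources used here do not state which step made which table. Of the values of the normalized table, 100% came out within 0.001 of a whole read (largest deviation 8.6e-10), and these recovered reads were tested as counts. From it 114 spike-in and 7 ribosomal RNA entries were set apart.

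All 6 groups entered 1 fit without a replicate block, since no label ties the replicate numbers to a mouse. Correlations of same-numbered libraries' deviations ran from -0.101 to 0.143, against -0.11 to 0.111 for different numbers. The fit used edgeR 4.0.16 quasi-likelihood tests (R 4.3.3, limma 3.58.1), TMM scaling, and filterByExpr with a minimum count of 10 and total of 15. The prior count was 2, with 18 residual degrees of freedom and a Benjamini-Hochberg threshold of 0.05. edgeR was tested on simulated data. DESeq2 1.42.0 was an alternative. A replicate block was another, and 17 of 24 libraries correlated best with their own number. Library totals of 3334182 to 6350251 counts set the precision; intervals cover counting error only. Copies were found with BLAST 2.17.0; the rest used Python 3.11.15, pandas 2.3.3, numpy 2.4.6, scipy 1.17.1 and matplotlib 3.10.9.

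Named genes were the 3 highest and 3 lowest changes per treatment and time, the 2 highest and 2 lowest of other comparisons, the 6 with the largest gap between tables, paralog pairs, 6 index members (Rps6, Rpl13a, Rpl5, Rpl11, Rps19 and Rpl38), the kinases and the 5 most alike genes; any others were named after their values were seen. Members and lists were chosen with earlier results of these data known. Recovered reads with spike-in scaling, summed copies, and 2 fits without untreated 18 h replicate 4 (spike-in scaling, recovered reads) were added after seeing the data. A few named results are not reported here.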

Additional observations from a re-analysis of the deposited data

Results flagged for a closer look

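A library far from the other 3 of its group was looked for in 144 sets of values, and 10 were found; chance alone gives about 1 in 20 groups. Untreated 18 h replicate 4 stood above its group for Rpl3 (442 CPM of counts, others 214 to 238), Rpl11 (381 CPM of counts, others 206 to 232) and Rpl36al (173 CPM of counts, others 87.2 to 101, and 169 CPM of recovered reads, others 85.6 to 98.7). LPS 18 h replicate 4 stood below its group for Rpl41, at 126 CPM of counts (others 211 to 227) and 141 CPM of recovered reads (others 263 to 283). Untreated 3 h replicate 1 held 2.12 CPM of counts and 2.1 CPM of recovered reads for Rpl3l, where the others held at most 0.225 and 0.223. S14 18 h replicate 1 had 117 CPM of recovered reads for Rpl22l1 (others 104 to 105), and S14 18 h replicate 4 had 190 CPM of counts for Rpl11 (others 178 to 180).

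The effect of a treatment differed between 3 h and 18 h, by edgeR's test of the difference with Benjamini-Hochberg adjustment, for 6 values of named members. For S14 these were Rpl41 (1.08 on the log2 scale, adjusted p = 0.0135) and Rpl15 (-1.09, adjusted p = 0.00305; -0.18 and adjusted p = 0.616 in recovered reads). For LPS these were Rpl41 (1.21, adjusted p = 0.00184), Rpl3l (3.60, adjusted p = 0.0348), Rpl3 (-3.12, adjusted p = 1.1e-09) and Rpl13 (-2.07, adjusted p = 3.07e-11).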

How the results depend on the processing

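The values here cover canonical members and those with a paralog's symbol, 78 of them tested on the counts. Each number of calls takes both directions together, and the shares of all genes called stand with each comparison above. With LPS at 3 h 29 were higher and 7 lower, beside 25.3% and 30.2% of all genes. Between untreated times 6 were higher and 24 lower, beside 19.2% and 19.6%. On the counts 0 were called for S14 at 3 h, 36 for LPS at 3 h, 24 for S14 at 18 h, 53 for LPS at 18 h, 24 for S14 against LPS at 3 h and 56 at 18 h, 30 between untreated times, and 15 and 49 for the change over time of the S14 and LPS effects. Leaving out 1 library at a time gave, in this order, 0 to 0, 28 to 45, 19 to 27, 51 to 63, 18 to 35, 53 to 60, 25 to 34, 11 to 19 and 46 to 54. Spike-in scaling gave 8 for LPS at 3 h, 53 for S14 at 18 h, 0 and 4 for S14 against LPS at 3 h and 18 h, and 39 for the S14 change over time. Of the 53, 1 was higher and 52 were lower, beside 0.905% and 64.3% of all genes. Recovered reads on the spike-in scale gave 6, 51, 0 and 2, 19 between untreated times and 33 for the S14 change over time. Without untreated 18 h replicate 4, the spike-in scale gave 15 and 11 for S14 against LPS at 3 h and 18 h and 1 between untreated times, and recovered reads gave 46 for S14 against LPS at 3 h. The cause of these differences was not tested.

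The median log2 change with S14 at 3 h was 0.14 on the spike-in scale, with and without that library, and with LPS at 3 h 0.52 in both. With S14 at 18 h it was -1.05 on the spike-in scale (-0.58 without that library), 0.03 in recovered reads and 0.01 with copies summed. With LPS at 18 h it was -1.32 (-0.93 without that library) and -0.62 in recovered reads. The shares of reads, in the order untreated, S14 and LPS at 3 h and then 18 h, were 5.83%, 5.59%, 4.38%, 4.83%, 4.36% and 2.4% in recovered reads, and 3.66%, 3.53%, 2.84%, 3.24%, 2.69% and 1.49% with 6 ribosomal genes outside the name rule added. The median ratio of the tables' totals was 1.35 with copies summed.

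Single genes turned direction mostly between tables. With LPS at 3 h Rpl7a was at -0.04 in recovered reads, with and without untreated 18 h replicate 4. Rpl7 was at 0.35 in both of these, 0.69 in recovered reads on the spike-in scale and 0.19 with copies summed, and Rpl5 at 0.16, 0.52 and 0.18. Rpl10 was at -0.44 in recovered reads without that library. With S14 at 18 h Rps23 was at 0.25 in recovered reads, 0.07 without that library and 0.00 with copies summed. On the spike-in scale Rps27l was at -0.76 (-0.73 in recovered reads), Rpl7l1 at -0.73 in both, Rpl13a at -1.03 in both and Rps19 at -0.84 (-0.97). In recovered reads Rpl36a was at -0.98 and Rpl7 at -1.11 on the spike-in scale, and both at -0.24 without that library. Rps29 with LPS at 18 h was at -0.27 in recovered reads without that library, and Rpl7a between untreated times at -0.31 in recovered reads and -0.16 without it.

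With the replicate block the counts were 0, 36, 25, 53, 26, 57, 30, 16 and 48 in the order above, and 88 of 89 named values kept their call and 1 (Rpl3l, the LPS change over time, 3.46) lost it. The labels do not say whether same-numbered libraries share a source. Median correlations of deviations between same-numbered libraries were 0.0192 to 0.0443, all above the -0.00771 for different numbers. Of the 24 libraries, 17 correlated best with their own number. Whether same-numbered libraries share a source was not tested. DESeq2 size factors kept 86 of 89 calls, DESeq2's test 85, and no filter on low counts 87.

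Members with few counts, such as Rps29 with 325 and Rpl27 with 107, carry wide errors in the count table. The spike-in scale rests on 705 to 2588 reads per library, and untreated 18 h replicate 4 had the fewest. How reads that fit several genes were assigned in each table was not tested.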
